A study of Homo sapiens with 2 samples.

Results

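PMEL and 9 further genes of pigment cells were followed in AGS cells, an established epithelial line from a human gastric adenocarcinoma, which is not a pigment cell. The 10 genes were PMEL, MLANA, TYR, TYRP1, DCT, MITF, GPNMB, OCA2, RAB27A and SLC45A2, out of 20235 genes with a name on the array, and each had 1 probe set. They were found in the deposited table by gene symbol, where PMEL stands under its older name SILV. The group was chosen from the measured values of these same arrays, because PMEL had the largest ratio, so PMEL's own difference is given as a description. The genes added to it are those that textbooks place beside PMEL in melanocytes.

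Total RNA was hybridised from cells given 100 nM LBH589 for 24 h, with 1 array, and from control cells, with 1 array. The control sample is titled "control treated", its treatment is labelled as none, and no time is given for it. Both groups are the same cell line, and no vehicle, passage or culture batch is described in the sources used here. LBH589 (panobinostat) inhibits histone deacetylases of several classes. Values are deposited intensities on a linear scale, which have no replicate and therefore no error, and no test was possible. A gene is called higher or lower at a size of 2-fold or more. Intensities under 2.95, percentile 20 of all values, were raised to that floor before a log2 ratio (LBH589 over control) was taken. A background level of 4.63 was set from percentile 95 of 456 probe sets of olfactory receptors, and an intensity under it is treated as not measured above background. For a gene under background on its dimmer array, a lower limit of the fold was computed as the brighter intensity over background and is written as "at least". The 2 arrays had median intensities of 4.77 (LBH589) and 4.84 (control), and 51.0% and 51.4% of probe sets reached background.

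Melanocytes make pigment in melanosomes, organelles related to lysosomes. PMEL forms the amyloid fibrils on which melanin is laid down. TYR, TYRP1 and DCT are the enzymes of melanin synthesis, and MITF is the transcription factor that in melanocytes drives the genes of all these proteins. In pigment cells the genes are therefore expressed together, and PMEL protein is used as a marker of melanocytes and melanoma under the antibody name HMB-45.

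In these arrays PMEL stood alone. It was far above background in the cells given LBH589, while none of the other 9 genes differed by 2-fold, and 7 of these 9 were under background on both arrays. Of all 18769 genes detected at the floor, 4.90% were called higher and 4.86% were called lower. Among the 10 genes, 1 was called higher (PMEL, for which the group was chosen) and 0 were called lower. Background lies less than 2-fold above the floor. After the floor, the 7 genes under background on both arrays could therefore not be called in either direction, and PMEL could not be called lower. All 10 genes passed the floor, and 3 reached background on at least 1 array, PMEL only on the LBH589 array. Over the whole array, 7280 of 20235 genes were under background on both arrays. The 9 genes other than PMEL had a median log2 ratio of 0.05, with a range from -0.59 to 0.20, beside a median of 0.00 over all detected genes.

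**Figure D1:**
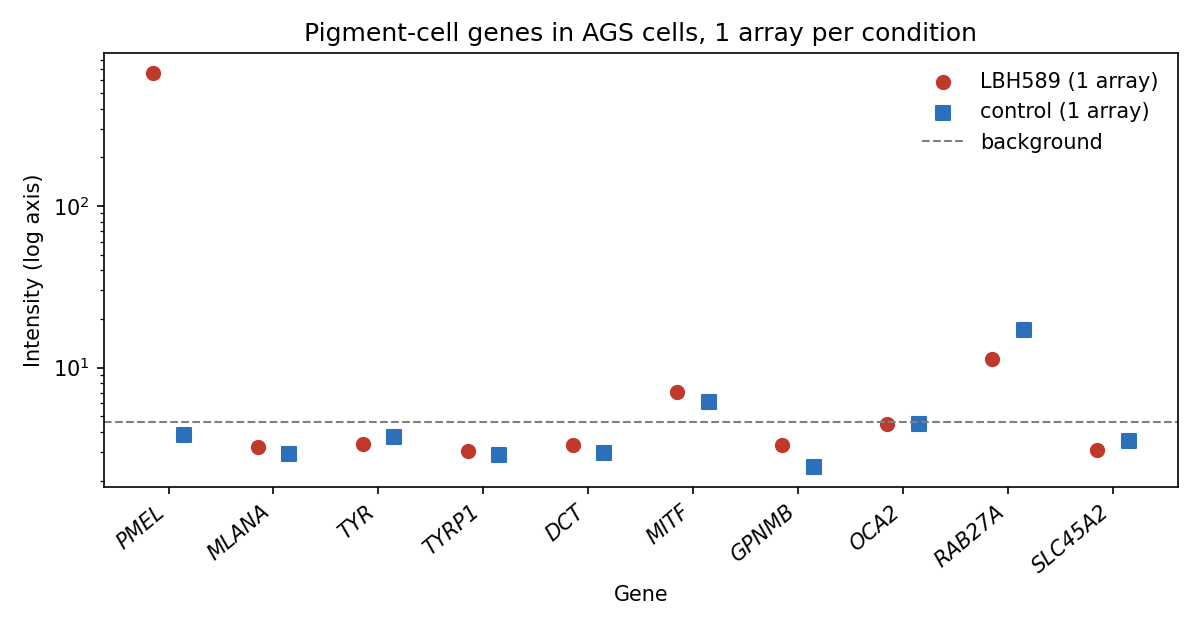
Intensity (log axis) of each of the 10 pigment-cell genes with LBH589 (red circles) and in control (blue squares), with the background level of 4.63 as a dashed line. Each point is 1 array; PMEL lies at 666 with LBH589 and 3.83 in control, RAB27A and MITF lie above the line on both arrays, and the other 7 genes lie under it on both.

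Promoter sequences were read for the 10 genes, since MITF is known to bind the promoters of pigment genes. RefSeq promoters (GRCh38.p14, 250 bases before to 50 after an annotated start) were found for 8 of the 10 genes, with 15 starts in all, 3 of them of MITF and 5 of RAB27A. There was no entry for PMEL or SLC45A2. Both strands were searched for CATGTG and CACGTG, the words of the E-box family that MITF binds, and for TCATGTG, the core of the M-box, which contains CATGTG. The 4 promoters with TCATGTG on either strand, all of genes under background on both arrays, are printed below in the sense of the gene, 5′ to 3′, with CATGTG or its reverse complement CACATG in capitals. They lie on the plus strand at chr11:89177625-89177924 for TYR, chr9:12693135-12693434 for TYRP1 and chr7:23246525-23246824 for GPNMB, and on the minus strand at chr13:94479633-94479932 for 1 of the 2 starts of DCT.
TYR: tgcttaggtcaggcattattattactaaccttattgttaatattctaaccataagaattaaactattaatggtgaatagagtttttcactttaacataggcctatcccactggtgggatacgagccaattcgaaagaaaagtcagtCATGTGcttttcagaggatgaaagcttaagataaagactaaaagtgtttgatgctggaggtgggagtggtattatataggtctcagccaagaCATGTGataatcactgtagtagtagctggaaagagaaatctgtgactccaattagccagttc
TYRP1: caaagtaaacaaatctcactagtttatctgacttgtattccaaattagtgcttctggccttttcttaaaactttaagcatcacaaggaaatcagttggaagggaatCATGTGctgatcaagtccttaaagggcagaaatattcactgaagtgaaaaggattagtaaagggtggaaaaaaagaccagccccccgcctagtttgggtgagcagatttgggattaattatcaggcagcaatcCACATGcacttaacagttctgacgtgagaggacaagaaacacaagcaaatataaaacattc
DCT: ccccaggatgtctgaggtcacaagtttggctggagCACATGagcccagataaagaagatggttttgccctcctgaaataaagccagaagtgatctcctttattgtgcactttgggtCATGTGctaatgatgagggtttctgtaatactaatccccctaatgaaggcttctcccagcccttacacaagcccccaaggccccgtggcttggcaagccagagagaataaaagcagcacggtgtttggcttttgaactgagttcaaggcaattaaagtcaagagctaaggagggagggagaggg
GPNMB: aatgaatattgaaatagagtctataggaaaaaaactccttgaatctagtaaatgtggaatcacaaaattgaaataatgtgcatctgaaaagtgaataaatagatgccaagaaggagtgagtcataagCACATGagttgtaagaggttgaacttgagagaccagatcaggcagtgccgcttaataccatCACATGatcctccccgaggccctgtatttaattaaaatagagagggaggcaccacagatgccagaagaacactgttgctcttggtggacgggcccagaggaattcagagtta

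The word CATGTG began 104 and 12 bases before the start of TYR, and 144 bases before that of TYRP1, where the reverse complement began 11 bases before the start. In DCT it began 134 bases before the start, with the reverse complement at 215 bases. In GPNMB the reverse complement began 123 and 62 bases before the start. CATGTG was also found 153 bases before the start of OCA2, without the further T of the M-box core. Thus 5 of the 15 promoters held CATGTG and 4 held TCATGTG, whereas 11.1% and 2.92% of all 35116 RefSeq promoters did. None of the 15 held CACGTG, which 7.26% of all promoters did. The GC box GGGCGG was in 4 of the 15, at starts of MITF, OCA2 and RAB27A, and in 44.95% of all promoters. A word in a window is a description of these letters, and the genes were grouped because they are known pigment genes, so the shares are no test.

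PMEL had an intensity of 666 with LBH589, against 3.83 in control. The control value was under background, so PMEL was at least 144-fold higher with LBH589. The authors' deposited table gives a fold of 174, which divides by an intensity under background. In RNA of a whole culture, many cells with some PMEL mRNA and few cells with much of it cannot be told apart. GPNMB, the closest relative of PMEL and a membrane glycoprotein of melanosomes, macrophages and bone cells, had 3.31 with LBH589 and 2.41 in control, both under background. Its log2 ratio was 0.16 after the floor and 0.46 without one. The relative of PMEL therefore gave no signal that could be told from background on either array.

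**Figure D2:**
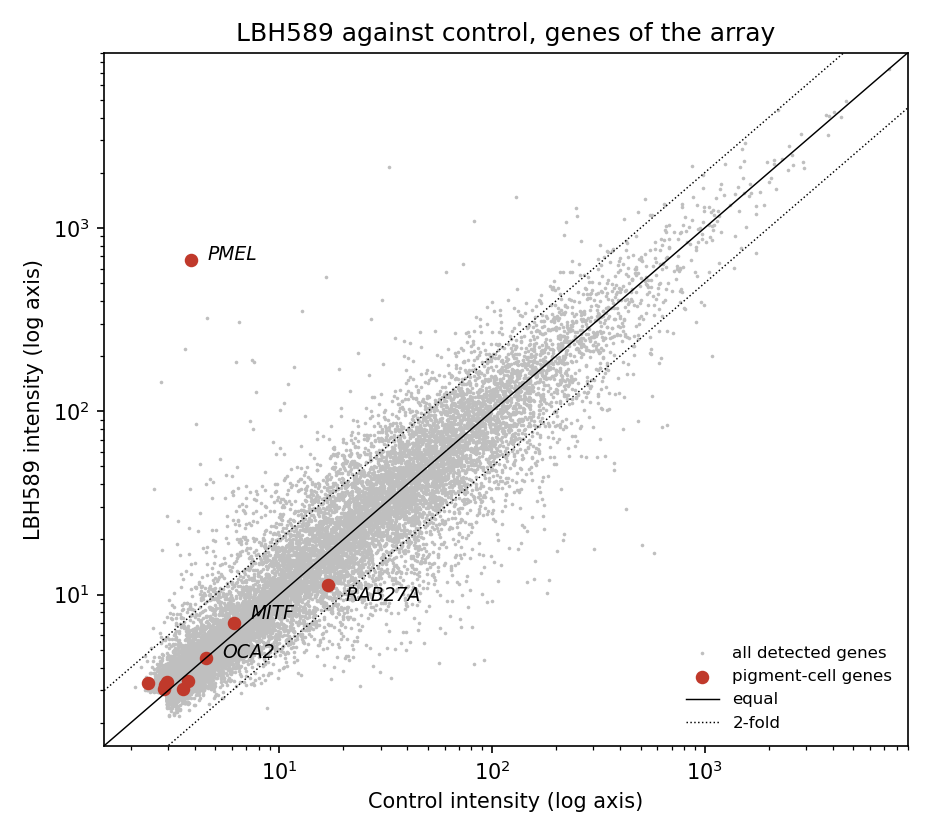
LBH589 intensity against control intensity (both log axes) for the 18769 detected genes (grey) and the 10 pigment-cell genes (red), with a solid line of equal values and dotted lines at 2-fold. PMEL lies at 3.83 in control and 666 with LBH589, far from the solid line, and the other 9 genes lie between the dotted lines.

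The enzymes of melanin synthesis stayed under background. TYR, tyrosinase, which carries out the first steps from tyrosine, had 3.39 with LBH589 and 3.72 in control. TYRP1, which acts in the later steps of eumelanin synthesis, had 3.06 with LBH589 and 2.88 in control. DCT, dopachrome tautomerase, had 3.33 with LBH589 and 2.95 in control. All 3 enzymes were under background on both arrays, so no direction is read from their values.

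MLANA, a small melanosomal membrane protein that in melanocytes associates with PMEL and is a companion marker of melanoma, had 3.23 with LBH589 and 2.90 in control. OCA2, a melanosomal ion transport protein, lay just under background with 4.50 with LBH589 and 4.50 in control. SLC45A2, a transporter that keeps the melanosome lumen suited to tyrosinase, had 3.07 with LBH589 and 3.52 in control. These 3 membrane proteins of the melanosome gave no signal above background, and their log2 ratios were 0.13 (MLANA), 0.00 (OCA2) and -0.20 (SLC45A2).

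MITF was measured above background on both arrays, at 7.01 with LBH589 and 6.12 in control, a 1.15-fold difference and a log2 ratio of 0.20. The table has a single probe set for MITF and does not separate its transcripts, among them the one used by melanocytes. RAB27A, a small GTPase that carries melanosomes along actin in melanocytes and secretory granules in many other cells, had 11.3 with LBH589 and 17.0 in control. RAB27A was thus 1.502-fold lower with LBH589 (log2 ratio -0.59), the largest difference of the 9 genes other than PMEL, and still within 2-fold. Among genes that reached background, 15.2% had a lower log2 ratio than RAB27A, and 64.7% had a lower one than MITF. Olfactory receptor probe sets, which are mostly dim, had log2 ratios from -0.72 to 0.82, with an SD of 0.18. These were taken without the floor, unlike the ratios of the genes.

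The rest of the melanocyte program was then read from marker lists. Of 20 markers of melanocytes and melanoma, 12 were under background on both arrays, among them S100B, TRPM1, CSPG4 and MCAM. The list was summed without PMEL, and its intensity was 93.3 with LBH589 and 122 in control. MLPH and ERBB3 carried that difference, since the other 17 genes summed to 76.4 with LBH589 and 74.1 in control. These sums without single genes were chosen after the values were seen. Besides PMEL, the markers above background on at least 1 array included SOX10, MIA, ERBB3, NGFR, MLPH and MAGEA3. SOX10, the transcription factor that in melanocytes acts above MITF, had 11.4 with LBH589 and 10.5 in control. The only calls in the list other than PMEL were ERBB3, a receptor of neural crest cells and epithelia, 2.17-fold lower (8.63 with LBH589 and 18.8 in control), and MLPH, described below. MIA, a protein secreted by melanoma cells, had 9.22 with LBH589 and 8.81 in control, and NGFR, a neural crest receptor, had 5.71 with LBH589 and 5.25 in control. Most markers of the melanocyte were thus under background in both conditions, beside 7280 of all 20235 genes. PMEL, for which the group was chosen, was the 1 called higher.

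Markers of other cells that use pigment or neural crest genes were read in the same way. Their counts under background also stand beside 7280 of all 20235 genes. Of 10 markers of the retinal pigment epithelium, which also makes PMEL, 7 were under background on both arrays, including RPE65, RLBP1 and BEST1, and without PMEL the list summed to 44.7 with LBH589 and 55.3 in control. RDH5, a retinol dehydrogenase, had 6.04 with LBH589 and 5.40 in control, and MERTK, a phagocytic receptor, had 15.9 with LBH589 and 26.5 in control. Of 12 Schwann and neural crest markers, 5 were under background, 0 were called higher and 1, ERBB3, was called lower. The list summed to 65.0 with LBH589 and 74.9 in control. ERBB3, with 8.63 with LBH589 and 18.8 in control, carried that difference. Of 12 macrophage markers, 8 were under background, and the list summed to 505 with LBH589 and 757 in control. LYZ carried that difference, since the other 11 genes summed to 53.5 with LBH589 and 51.1 in control. CSF1R, the receptor of macrophage growth factors, was at least 2.35-fold higher with 10.9 with LBH589 and 4.06 in control, while CD14, CD163 and PTPRC were under background on both arrays. CD68 had 7.90 with LBH589 and 9.23 in control, and TYROBP, an adaptor of immune receptors, had 9.46 with LBH589 and 11.6 in control. LYZ, lysozyme, which gastric epithelium also makes, had 451 with LBH589 and 706 in control.

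Epithelial genes were above background in both conditions, which fits the label of the line. KRT8 had 2292 with LBH589 and 1967 in control, KRT18 had 632 with LBH589 and 634 in control, and EPCAM had 337 with LBH589 and 577 in control. Of 15 gastric epithelial markers, 14 were above background on both arrays, 1 was called higher and 5 were called lower. Of all detected genes, many of which were under background, 4.90% were called higher and 4.86% lower. TFF2 was under background on both arrays. The list summed to 5204 with LBH589 and 5568 in control. LGR5, a stem cell receptor, had 84.5 with LBH589 and 666 in control. CDH17, an intestinal cadherin, had 31.0 with LBH589 and 175 in control. MUC1, a membrane mucin, had 37.8 with LBH589 and 211 in control, and VIL1, villin, had 90.5 with LBH589 and 224 in control. The higher gene was KRT19, a keratin, named after its value was seen, with 1171 with LBH589 and 566 in control. TFF1, a gastric trefoil peptide, had 7.12 with LBH589 and 7.09 in control. The part of these differences in the PMEL value was not tested.

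Further genes of the pigment pathway were taken from lists of textbook knowledge, which were written with earlier results of these arrays known. Their counts, and those of the neighbours, stand beside 4.90% of all detected genes called higher and 4.86% called lower, and no list was tested against other genes. Many detected genes were under background on both arrays and could not reach 2-fold after the floor. With background as the floor, 878 of 12955 genes were called higher and 892 lower, a larger share. Lists that are mostly above background are better set beside that share. With 50 added to every intensity, 34 of the 37 genes outside the group that were called here fell short of 2-fold, and LGR5, CDH17 and MUC1 did not. With a floor of 16, 22 of the 37 were still past 2-fold, and among the genes that were not are SLC7A11, PCSK6, LYST, HPS5, MLPH, RAB27B, ERBB3 and CSF1R. With quantile normalization CHML fell short.

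Of 17 genes for melanosome cargo, enzymes and transporters, 4 were called higher, 1 was called lower, and 10 were under background on both arrays. The median log2 ratio was 0.10 over the 16 detected. Besides PMEL, the higher genes were transporters that also serve lysosomes or the Golgi. ATP7A, the copper pump that loads tyrosinase with its metal, had 76.2 with LBH589 and 31.7 in control (2.40-fold higher). CTNS, which exports cystine from lysosomes, had 51.4 with LBH589 and 21.9 in control (2.35-fold). MFSD12, needed for the import of cysteine into melanosomes and lysosomes, had 61.4 with LBH589 and 29.4 in control (2.09-fold). SLC7A11, the cystine importer of the cell surface, was 2.84-fold lower with 6.93 with LBH589 and 19.7 in control. GPR143, a melanosomal receptor of pigment cells, was near background with 4.73 with LBH589 and 4.72 in control, and the pigment genes SLC24A5 and SLC24A4 were under it. TPCN2, a channel of melanosomes and lysosomes, had 14.7 with LBH589 and 19.1 in control.

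PMEL protein is cut by a convertase of the furin type, by BACE2 and by γ-secretase, and is sorted with the help of CD63 and APOE. Of 16 genes for these steps, 15 were above background on both arrays, 0 were called higher and 3 were called lower. The median log2 ratio was -0.28. FURIN had 14.5 with LBH589 and 41.7 in control (2.88-fold lower), and PCSK6, a related convertase, had 8.26 with LBH589 and 28.0 in control (3.39-fold lower). NCSTN, a subunit of γ-secretase, had 60.4 with LBH589 and 166 in control (2.75-fold lower). BACE2 had 46.5 with LBH589 and 70.3 in control, and CD63, which helps to sort PMEL in endosomes, had 360 with LBH589 and 610 in control, both within 2-fold. APOE was near background, with 5.34 with LBH589 and 5.53 in control, and PDCD6IP, which takes part in endosomal sorting, had 133 with LBH589 and 129 in control. Transcripts for most of the enzymes that mature PMEL were thus present in AGS cells in both conditions.

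Melanosomes are built with the BLOC complexes, the AP-3 adaptor and related trafficking proteins, which many cell types use for lysosomes. Of 28 such genes measured, 27 were above background on both arrays, 4 were called higher and 0 were called lower, with a median log2 ratio of 0.28. LYST, the gene of Chediak-Higashi syndrome, had 20.1 with LBH589 and 6.87 in control (2.92-fold higher). HPS3, a subunit of BLOC-2, had 116 with LBH589 and 43.9 in control (2.65-fold higher), and HPS5, a subunit of the same complex, had 23.3 with LBH589 and 11.6 in control (2.01-fold higher). VPS41, of the HOPS tethering complex, had 143 with LBH589 and 70.4 in control (2.03-fold higher). RAB38, which with RAB32 brings cargo to melanosomes, was under background on both arrays, and RAB32 had 8.84 with LBH589 and 9.40 in control. BLOC1S4, of BLOC-1, had 14.1 with LBH589 and 13.8 in control, and HPS4, of BLOC-3, had 7.85 with LBH589 and 8.23 in control.

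RAB27A works with effectors and motor proteins that move and dock organelles. Of 20 genes of the transport machinery, 6 were called lower and 1 higher, with 18 above background on both arrays and a median log2 ratio of -0.16. UNC13D, an effector of RAB27A in granule release, had 11.5 with LBH589 and 53.5 in control (4.66-fold lower). MLPH, melanophilin, which ties RAB27A to myosin Va on melanosomes, had 8.35 with LBH589 and 29.6 in control (3.55-fold lower). SYTL2, an effector that docks melanosomes at the membrane, had 18.3 with LBH589 and 60.6 in control (3.31-fold lower). RAB27B, the closest relative of RAB27A, had 6.56 with LBH589 and 21.6 in control (3.29-fold lower). The other lower genes, MYO5B and RAB11B, and the higher one, CHML, a Rab escort protein, were named after their values were seen, with folds of 2.23, 2.14 and 2.01. MYO5A, the motor itself, had 7.66 with LBH589 and 6.95 in control, and the small GTPase RAB17 had 21.4 with LBH589 and 21.7 in control. CHM, the other Rab escort protein, had 47.2 with LBH589 and 45.9 in control.

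**Figure D3:**
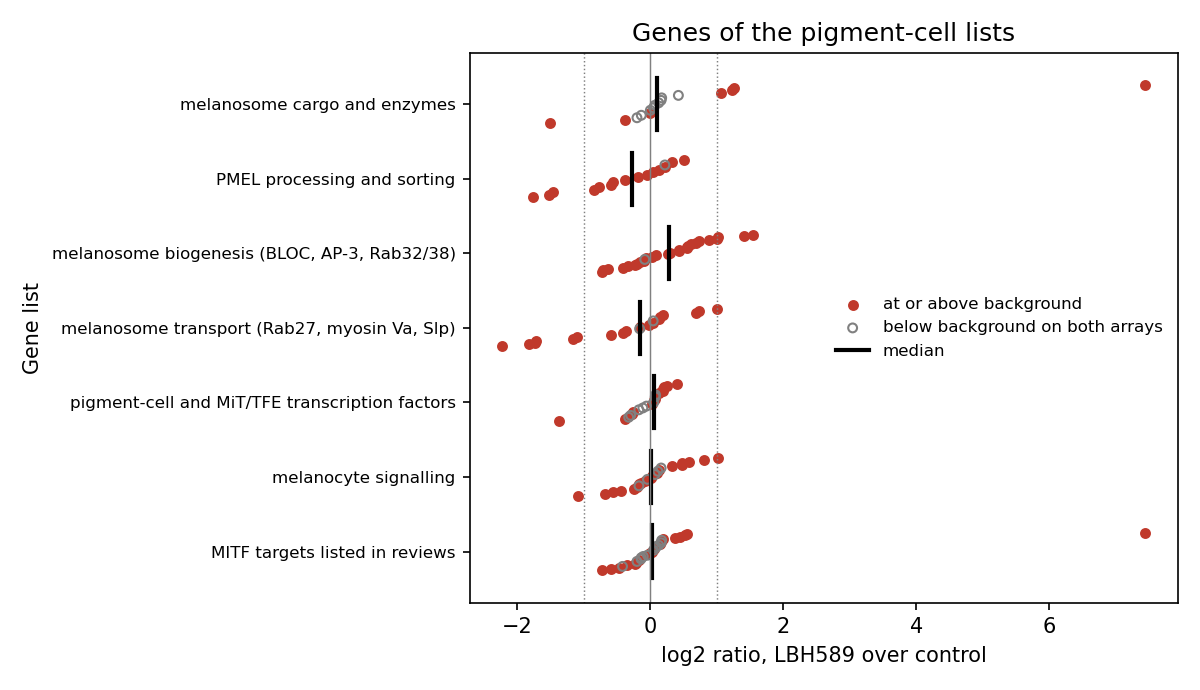
Log2 ratio (LBH589 over control) of each detected gene in 7 lists of the pigment pathway, with filled circles for genes at or above background on at least 1 array, open circles for genes under it on both, black bars at list medians and dotted lines at 2-fold. The point at 7.44 is PMEL, which is in 2 of these lists; the medians lie between -0.28 and 0.28.

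Of 23 transcription factors of pigment cells and of the MITF family, 0 were called higher and 1 was called lower. The median log2 ratio was 0.05 over the 21 detected. Of the 23, 10 were under background on both arrays and 10 were above it on both, so many could not be judged. TFE3, a relative of MITF, had 30.8 with LBH589 and 26.6 in control, and TFEB had 5.42 with LBH589 and 5.17 in control. TBX2, a T-box factor, was near background with 5.78 with LBH589 and 5.54 in control. TFEC and PAX3 were under background on both arrays. USF2, a factor that also binds E-boxes, had 36.3 with LBH589 and 93.9 in control (2.59-fold lower), and its partner USF1 had 45.9 with LBH589 and 59.5 in control. Neither MITF nor the other factors of the list were called higher beside PMEL.

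Of 24 genes of melanocyte signalling, 1 was called higher and 1 lower, with a median log2 ratio of 0.02. SIK2, a kinase that restrains pigment production in mice, had 61.5 with LBH589 and 30.3 in control (2.03-fold higher), and GNAQ, a G-protein subunit, had 83.3 with LBH589 and 177 in control (2.12-fold lower). MC1R, the melanocortin receptor, had 4.72 with LBH589 and 5.28 in control, and KIT and EDNRB were under background on both arrays. ADCY9, an adenylate cyclase, had 15.3 with LBH589 and 15.2 in control, and NRAS had 187 with LBH589 and 184 in control. Among 33 genes that reviews list as MITF targets, PMEL was the 1 called higher and 0 were called lower. The 31 detected had a median log2 ratio of 0.03, and 14 of the 33 were under background on both arrays. CDKN1A, the cell cycle inhibitor p21 and also a target in the list, had 53.6 with LBH589 and 54.5 in control. The lists share genes with each other and with the 10 genes, so their counts are not separate evidence.

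The place of PMEL on its chromosome was looked at next. It lies on chromosome 12 between DGKA and CDK2 in the RefSeq order of measured protein-coding genes. Of the 10 such genes on each side, 2 of 20 were called higher and 2 lower, and their median log2 ratio was -0.11. DGKA, a lipid kinase, had 18.7 with LBH589 and 27.9 in control, and CDK2, a cell cycle kinase and a MITF target in melanoma, had 104 with LBH589 and 76.0 in control. SUOX, sulfite oxidase, had 21.4 with LBH589 and 9.36 in control (2.29-fold higher). ZC3H10 had 8.401 with LBH589 and 3.72 in control, under background, and was at least 1.81-fold higher. SARNP and ERBB3 were 2.08-fold and 2.17-fold lower. None of these 20 neighbours had a difference of like size. PMEL was chosen for the largest ratio of the array, so no neighbour could exceed it, and a difference of the region was not tested.

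**Figure D4:**
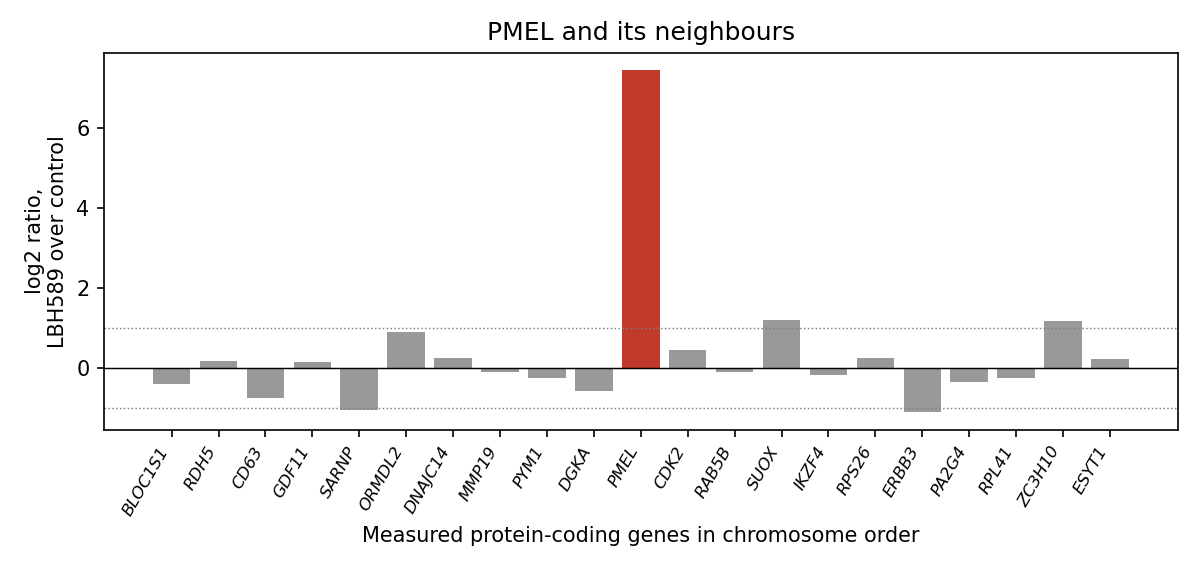
Log2 ratio (LBH589 over control) of PMEL (red) and of 10 measured protein-coding genes on each side (grey), in RefSeq chromosome order, with dotted lines at 2-fold. PMEL stands at 7.44 and the neighbours lie between -1.12 and 1.19.

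Beside the other 9 genes, of the 36 measured genes at the nearest 2 places on each side, 2 were called higher and 3 lower, with a median log2 ratio of -0.05. RANBP6 next to MLANA was 2.10-fold higher (104 with LBH589 and 49.8 in control), and KLHL7 near GPNMB was 2.27-fold higher (40.4 with LBH589 and 17.8 in control). PIGB next to RAB27A was 3.04-fold lower (6.68 with LBH589 and 20.3 in control), and NUP42 next to GPNMB was 2.14-fold lower. IGF2BP3, also near GPNMB, had 3.75 with LBH589, under background, and 8.98 in control, at least 1.94-fold lower.

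PMEL was also set among genes that were under background in control. Of 7902 such genes, 622 reached background on the LBH589 array, 53 were at least 2-fold above it and 6 at least 10-fold above it. Genes chosen by a low control value can only be seen to rise. Of all genes, 12955 reached background on at least 1 array and 11778 on both, so others were above it in control only. Among the 7902 genes under background in control, PMEL was the 1 at least 100-fold above it on the LBH589 array. The others at 10-fold or more were ZNF114, USP17L2, NTS, MIR7-3HG and SSBP2, with NTS, the hormone neurotensin, at least 31.2-fold higher. The 5 genes most like PMEL, by the distance between their log2 intensities over the 2 arrays, were ZNF114, DHRS2, USP17L2, ARRDC4 and CLU. Their distances were 1.07, 1.35, 1.60, 1.97 and 1.98 log2 units. ZNF114, a zinc finger gene, had 324 with LBH589 and 4.59 in control, under background, and was at least 69.9-fold higher. DHRS2, a dehydrogenase, had 305 with LBH589 and 6.43 in control (47.5-fold higher). USP17L2, from a family of nearly identical genes that a probe set may not separate, had 219 with LBH589 and 3.61 in control. ARRDC4, an arrestin-related protein, had 353 with LBH589 and 12.8 in control, and CLU, the chaperone clusterin, had 185 with LBH589 and 6.22 in control. With 2 arrays this likeness says only that their intensities were near each other in each condition.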

How the data were processed

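The intensities on a linear scale are those the authors deposited, made by RMA per probe set per the file headers, although the submitters' processing notes name MAS5. The deposited fold is a ratio made by the authors, and it matched that of the intensities within a relative 1e-06. No header or label names the software version or genome build.

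Symbols were brought up to date through RefSeq (GRCh38.p14), and probe sets without exactly 1 symbol were left out. For genes with more than 1 probe set, the brightest on average was kept. A gene was detected if its brighter array reached the floor of 2.95. Each group has 1 array, so no test, error or p-value is given, and the number of arrays limits the precision.

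The members, lists and rules were chosen with earlier results of these data known. Named were the 10 genes, per list up to 4 genes past 2-fold and up to 2 nearest to 0 above background, the 5 genes nearest to PMEL, and neighbours past 2-fold; further genes are examples named after their values were seen, and some genes are not reported here. The calling step was tested on simulated data. Alternatives were other floors, 50 added to intensities, quantile normalization, centring, the median over probe sets, the series' value table (identical intensities) and other sizes. Computations used pandas 2.3.3 and numpy 2.4.6 under Python 3.11.15, and matplotlib 3.10.9 drew the plots.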

Additional observations from a re-analysis of the deposited data

How the results depend on the processing

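The log2 ratio of PMEL was 7.44, and it was 7.17 where the background served as the floor, 5.38 where 16 did and 3.73 after 50 was added to each intensity, since these settings raise the control value. Quantile normalization gave 7.49, a shift smaller than the SD of olfactory receptor ratios taken without a floor. Centring left it at 7.44 and could not move it, since the median log2 ratio taken off was 0. The median over probe sets, no floor and the series' value table could not move it either. PMEL has 1 probe set, its control value lies above the floor, and the series' values are identical. PMEL was the 1 gene of the 10 called higher under every setting and size run. The group was chosen because PMEL had the largest ratio of these arrays, so this count is a description. The count called lower was 0 under each setting at 2-fold and 3-fold and was 1 at a size of 1.5-fold, which RAB27A reached. After the floor, the 7 genes under background on both arrays could not be called in either direction at 2-fold, and PMEL could not be called lower. The other 9 genes had log2 ratios from -0.59 to 0.46 without a floor and from -0.13 to 0.02 with 50 added. Of 37 genes outside the group that are called in the text, 3 kept 2-fold with 50 added and 22 with a floor of 16. With the floor at background 35 did (not ZC3H10 and IGF2BP3), and with quantile normalization 36 did (not CHML). None of the 37 changed direction under the settings run, but a floor or an added constant keeps the order of the 2 arrays. Such settings could not reverse a direction, whereas quantile normalization could. Over all genes, 134 were called higher and 146 lower with 50 added (20235 tested), and 629 higher and 618 lower with a floor of 16 (7780 tested). No paired analysis was possible because each condition has 1 array. Signal close to background limits what can be said of the 7 genes under it: a low level of their mRNA was not detectable.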
